A study of Mus musculus with 8 samples.

Results

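Adipogenic transcription factors and genes of fat cells were examined in mouse embryonic fibroblasts with and without MED23, a subunit of Mediator, the coactivator through which transcription factors reach RNA polymerase. The members were 10 genes chosen by name: the factors Cebpa, Cebpb, Cebpd and Pparg, and the lipid-handling or adipocyte genes Lpl, Apod, Dgat2, Adipor2, Fabp4 and Cd36. They were represented by every probe set that the arrays' probe-to-gene table pairs with one of these symbols alone, which were 19 of the 22690 probe sets in the table. Cells came from embryos of day 11 and had been passaged through crisis. Wild-type (WT) and Med23-/- knockout (KO) cells were all starved for 16 h in 0.5% serum, and were then either harvested or given 20% fetal bovine serum for 30 min. Each of these 4 groups had 2 arrays. Beyond genotype the cultures may differ in other ways, so loss of MED23 and other differences between the cultures cannot be told apart. Whether the 2 arrays of a group came from separate cultures is not stated, and p-values cover only the spread between them, which may be technical.

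Fat cell formation runs through a relay of transcription factors. C/EBPbeta and C/EBPdelta, encoded by Cebpb and Cebpd, appear early after a stimulus and switch on C/EBPalpha (Cebpa) and PPARgamma (Pparg), which maintain each other and turn on lipid genes such as Fabp4, Lpl and Cd36. Cebpb and Cebpd are also early response genes in fibroblasts. In preadipocytes, MED23 has been linked to transcription of Egr2 (Krox20) downstream of insulin, and Egr2 and Klf4 act upstream of Cebpb.

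Among the members, Cebpb was the gene whose serum rise differed most clearly on more than 1 probe set. Apod had the largest difference between genotypes. The start-site regions of both genes are shown for reference, and no signal or test below uses them. Each window runs from 250 bases before to 50 after the annotated start (RefSeq, build GRCm38.p6), and lies at chr2:167688665-167688964 on the plus strand for Cebpb and chr16:31314759-31315058 on the minus strand for Apod. Capitals mark matches on either strand to TGACG, the core of cAMP response elements, or to TTNNGNAA, the core of the C/EBP consensus.
Cebpb: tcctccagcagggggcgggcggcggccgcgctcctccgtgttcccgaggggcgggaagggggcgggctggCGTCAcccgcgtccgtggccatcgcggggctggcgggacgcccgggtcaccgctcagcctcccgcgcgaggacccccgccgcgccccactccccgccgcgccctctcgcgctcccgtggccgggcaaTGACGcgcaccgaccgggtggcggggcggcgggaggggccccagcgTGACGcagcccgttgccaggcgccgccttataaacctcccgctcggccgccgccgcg
Apod: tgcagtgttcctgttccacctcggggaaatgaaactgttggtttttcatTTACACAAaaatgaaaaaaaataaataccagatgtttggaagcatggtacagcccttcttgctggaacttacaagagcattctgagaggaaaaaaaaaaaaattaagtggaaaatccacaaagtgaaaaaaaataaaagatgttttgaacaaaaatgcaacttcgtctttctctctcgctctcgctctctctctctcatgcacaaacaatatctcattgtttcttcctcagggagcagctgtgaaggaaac
The Cebpb window held 3 matches to TGACG and none to TTNNGNAA, while the Apod window held 1 match to TTNNGNAA and none to TGACG. Among the 32851 start-site windows of the same length in the table, 20.8% held TGACG and 40.7% held TTNNGNAA. The AP-1 motif TGANTCA was in neither window and in 7.81% of all windows, and the CArG box was in neither and in 1.63%. A match is a description of letters only. Of the 10 genes, 6 had an entry in the table of start-site regions.

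Values are MAS5 signals, the authors' background-corrected brightness of a probe set on a linear scale, with array medians of 766 to 924. Replicate arrays correlated at r between 0.976 and 0.984 across probe sets, and Med23 read 3577 to 5410 on the 4 WT arrays against 28.0 to 132.5 on the 4 KO arrays. A probe set was tested where it reached its array's 40th percentile (a signal of 413 to 497) on at least 2 of the 8 arrays. Of the 19 probe sets 10 were tested, covering 7 genes. Pparg, Fabp4 and Cd36 stayed below that level on every array. Lpl and Apod passed only through the 4 KO arrays, so the filter leaned their tests towards a genotype difference. Differences are on the log2 scale of signal plus 16, from limma across all tested probe sets with Benjamini-Hochberg adjustment, and ± gives the standard error.

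**Figure D1:**
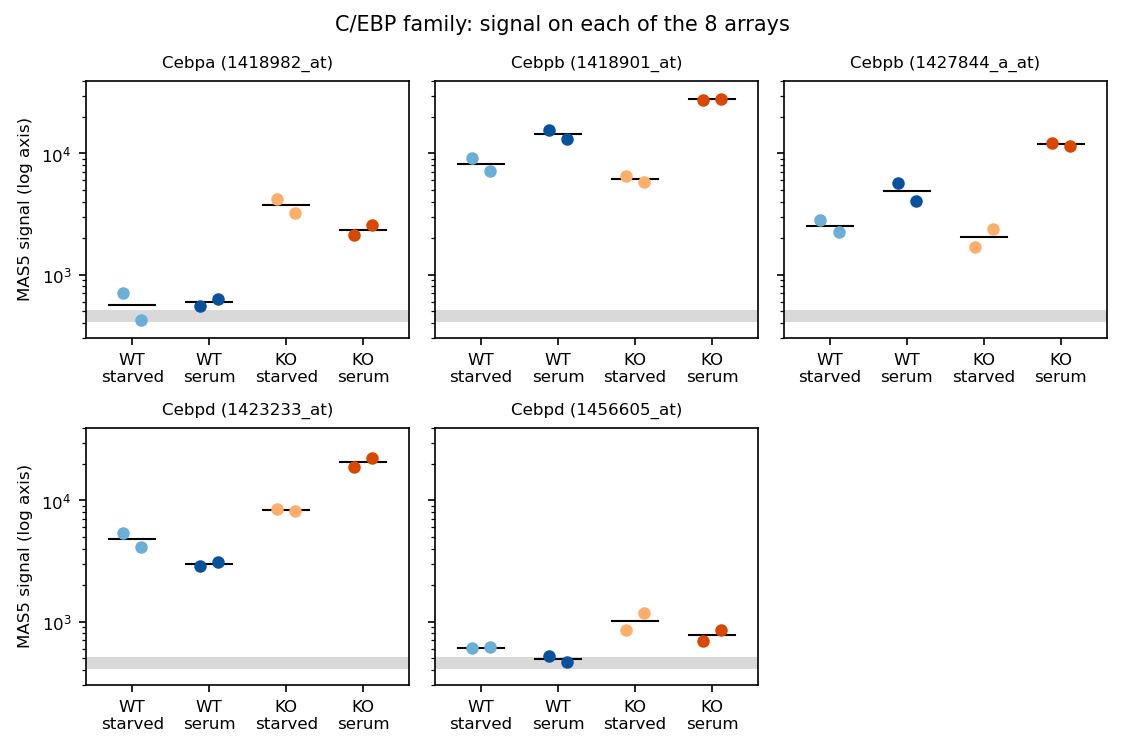
MAS5 signal (log axis) of the 5 C/EBP probe sets on each of the 8 arrays, with points for arrays, bars for the mean of 2 arrays, and a grey band from 413 to 497 for the arrays' 40th percentile. Cebpb rises with serum in both genotypes and furthest in KO cells, the brighter Cebpd probe set falls in WT and rises in KO cells, and Cebpa is high in both KO groups.

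Cebpb, which starts the relay, read 9099 and 7154 in starved WT cells and 15537 and 13191 after serum. In KO cells it went from 6478 and 5773 to 27595 and 28352. No group overlapped another, and the order from low to high was starved KO, starved WT, stimulated WT and stimulated KO. Serum raised it 1.77-fold in WT cells (log2 0.83 ± 0.137, limma adjusted p = 0.00715) and 4.56-fold in KO cells (log2 2.19 ± 0.137, adjusted p = 3.98e-06). The KO rise exceeded the WT rise by a log2 value of 1.36 ± 0.194 (adjusted p = 0.00572). The WT rise had adjusted p = 0.0552 without starved WT array 2 and adjusted p = 0.0751 without stimulated WT array 1, in limma.

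A second Cebpb probe set gave the same picture. It read 2834 and 2232 before serum and 5747 and 4019 after it in WT cells, and 1699 and 2371 before and 12141 and 11605 after in KO cells. The log2 rises were 0.93 ± 0.206 (adjusted p = 0.0335) and 2.55 ± 0.206 (adjusted p = 2.72e-05), with a difference of 1.62 ± 0.292 (adjusted p = 0.0202). Before serum, Cebpb was lower in KO cells on the first probe set, with a log2 difference of -0.40 ± 0.137 (adjusted p = 0.0355). On the second probe set the starved groups overlapped and the difference was -0.32 ± 0.206 (adjusted p = 0.225). The starved call on the first probe set was lost without starved WT array 1 (adjusted p = 0.252), without starved KO array 2 (adjusted p = 0.152) and without either stimulated KO array (adjusted p = 0.0577 and 0.0576), and after median centring of the arrays (adjusted p = 0.056). After serum Cebpb was higher in KO cells on both probe sets, by 0.97 ± 0.137 (adjusted p = 0.000274) and 1.30 ± 0.206 (adjusted p = 0.000543).

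Cebpd, the partner of Cebpb in the early wave, moved in opposite directions in the 2 genotypes on its brighter probe set. The signal was 5382 and 4147 in starved and 2871 and 3107 in stimulated WT cells, and 8452 and 8152 in starved and 18954 and 22371 in stimulated KO cells. The groups did not overlap, and both KO groups lay above both WT groups. Serum lowered it 1.58-fold in WT cells (log2 -0.66 ± 0.144, adjusted p = 0.0315) and raised it 2.48-fold in KO cells (log2 1.31 ± 0.144, adjusted p = 2e-04), a difference in response of 1.97 ± 0.203 (adjusted p = 0.0014). KO cells held 1.75-fold more when starved (log2 0.81 ± 0.144, adjusted p = 0.00111) and 6.86-fold more after serum (log2 2.78 ± 0.144, adjusted p = 3.87e-07). The WT fall was lost without starved WT array 1 (adjusted p = 0.181), stimulated WT array 1 (adjusted p = 0.17) or stimulated WT array 2 (adjusted p = 0.0895).

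The second Cebpd probe set did not show the KO rise. It was dim, at 609.6 and 612.2 in starved and 517.7 and 468.5 in stimulated WT cells, and at 860.9 and 1176 in starved and 688.4 and 853.4 in stimulated KO cells. Its serum changes were -0.30 ± 0.225 in WT and -0.39 ± 0.225 in KO cells on the log2 scale (adjusted p = 0.541 and 0.245), and its difference in response was -0.08, with a 95% interval from -0.79 to 0.62. That interval does not reach the value of the brighter probe set. The probe sets did share the higher level in KO cells, which on the second was 0.71 ± 0.225 when starved (adjusted p = 0.0256) and 0.62 ± 0.225 after serum (adjusted p = 0.0414). The disagreement on the serum response therefore limits that result to 1 of the 2 probe sets, and the transcript parts they read were not analysed here.

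Cebpa, the factor that holds the differentiated state, was high in KO cells in both serum states. It read 706.7 and 425.0 in starved and 553.4 and 633.6 in stimulated WT cells, against 4244 and 3222 in starved and 2125 and 2547 in stimulated KO cells. The genotypes did not overlap. The difference was 6.58-fold in starved cells (log2 2.72 ± 0.244, adjusted p = 1.31e-05) and 3.85-fold after serum (log2 1.95 ± 0.244, adjusted p = 0.000124). Its serum change was 0.11 ± 0.244 in WT cells (adjusted p = 0.873). In KO cells the stimulated arrays lay below the starved ones, with a log2 difference of -0.66 ± 0.244 that did not pass (adjusted p = 0.0754). That value passed without starved WT array 1 (adjusted p = 0.0385) or 2 (adjusted p = 0.0368) and in a fit of the KO arrays alone (adjusted p = 0.0332). As these are bulk samples, fewer cells with the transcript and less of it per cell cannot be told apart.

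**Figure D2:**
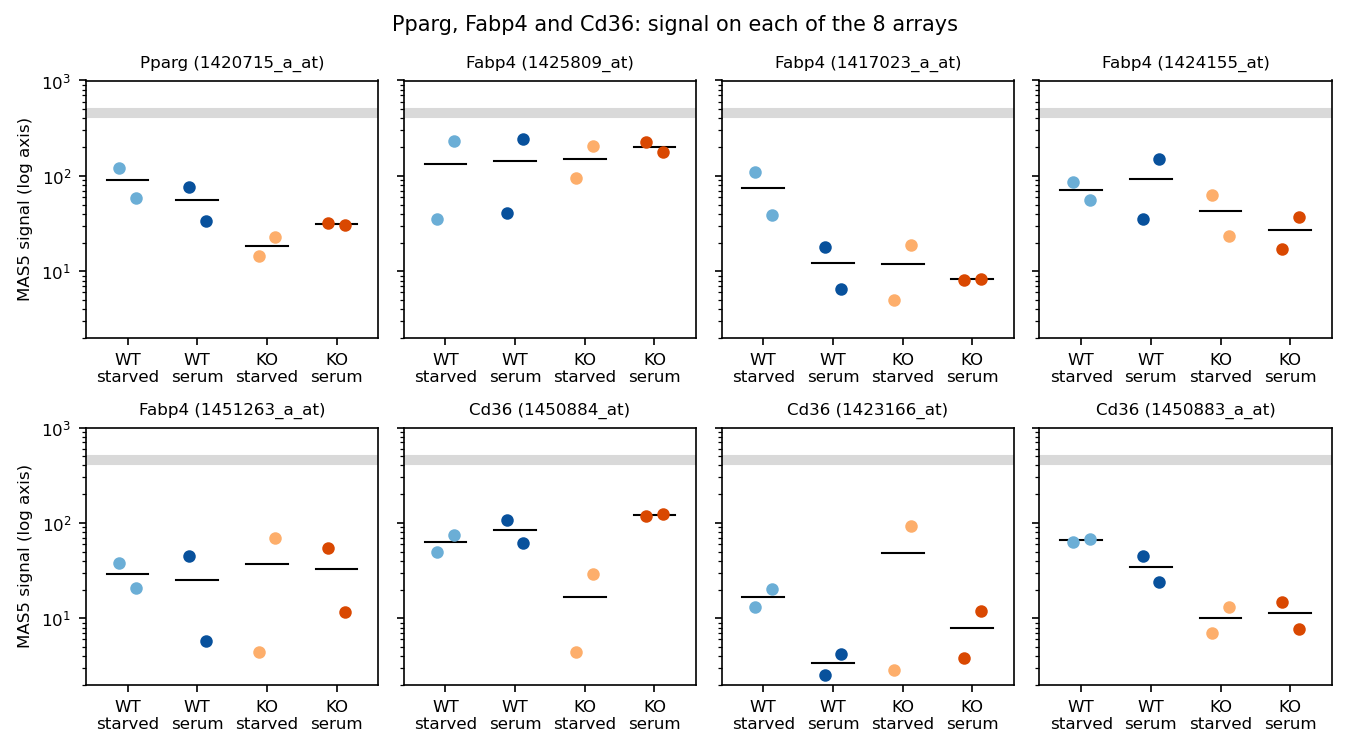
MAS5 signal (log axis) of the 8 probe sets of Pparg, Fabp4 and Cd36 on each array, with points for arrays, bars for the mean of 2 arrays, and a grey band from 413 to 497 for the arrays' 40th percentile. Every point lies below the band, the highest at 244.3.

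Pparg, the other factor of the second wave and the nuclear receptor that drives fat cell formation, was dim everywhere. It read 122.4 and 59.1 in starved WT, 76.9 and 33.9 in stimulated WT, 14.4 and 22.9 in starved KO and 31.7 and 30.4 in stimulated KO cells. All 4 KO values lay below all 4 WT values, in a range where MAS5 signals are noisy, and the probe set was not tested. The higher Cebpa of KO cells was thus not accompanied by a Pparg signal above the arrays' lower range.

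Fabp4, a fatty acid carrier of fat cells and macrophages, had 4 probe sets with 32 signals between 4.39 and 244.3 and a median of 38.7. Its brightest probe set read 35.6 and 231.5, 40.8 and 244.3, 95.6 and 205.9, and 226.0 and 176.8 in starved and stimulated WT and starved and stimulated KO cells, and all groups overlapped. Cd36, a fatty acid uptake receptor, had 3 probe sets with 24 signals between 2.54 and 123.6 and a median of 22.3. Its brightest probe set read 49.7 and 75.1 in starved and 108.1 and 62.1 in stimulated WT cells, and 4.44 and 28.9 in starved and 117.3 and 123.6 in stimulated KO cells. The other Cd36 probe sets did not show the high values after serum in KO cells, with 3.80 and 12.01 on one and 14.9 and 7.70 on the other. No level of Fabp4 or Cd36 was thus measured well enough for a comparison. Among 4 measured markers of mature adipocytes (Adipoq, Plin1, Cfd, Cidec, Lep and Retn, of which 2 had no single-gene probe set), none was above the 40th percentile on both arrays of a group except Retn in stimulated KO cells. Their summed signal was 397.5 to 988.6 over all 8 arrays.

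**Figure D3:**
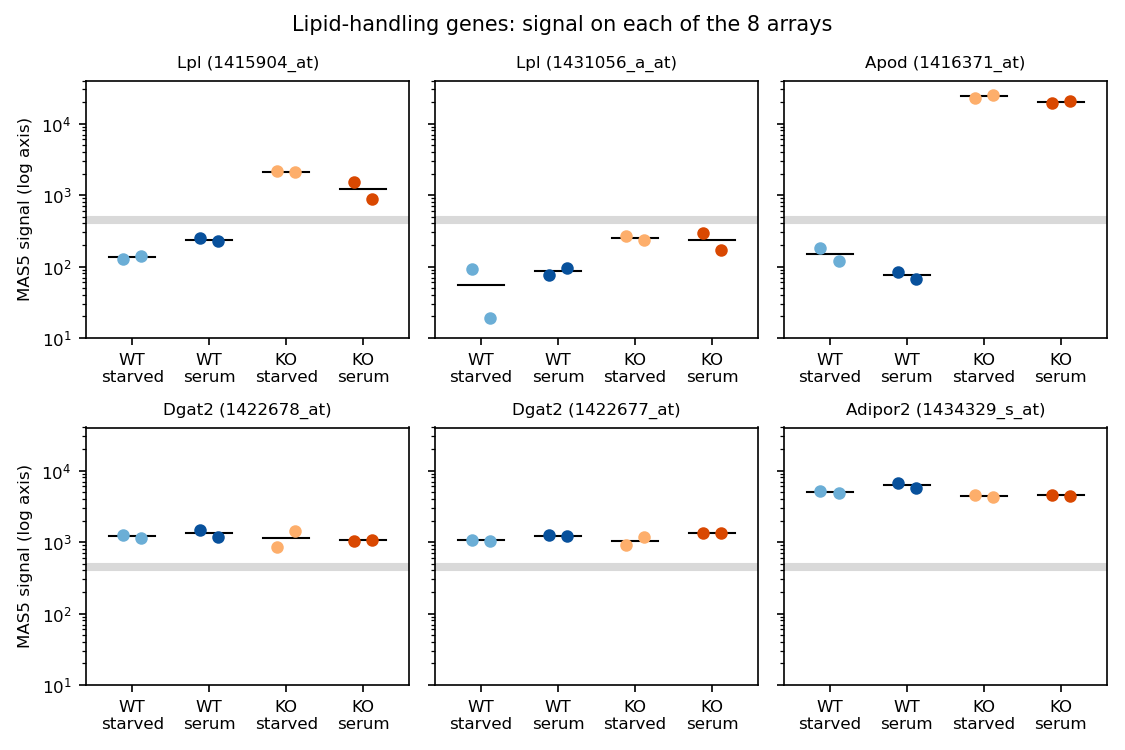
MAS5 signal (log axis) of the 6 probe sets of Lpl, Apod, Dgat2 and Adipor2 on each array, with points for arrays, bars for the mean of 2 arrays, and a grey band from 413 to 497 for the arrays' 40th percentile. Apod and the brighter Lpl probe set lie below the band in WT and above it in KO cells. Dgat2 and Adipor2 differ by less, with Adipor2 highest in stimulated WT cells.

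Apod, which encodes apolipoprotein D, a lipocalin that binds small lipids and rises in quiescent fibroblasts, had the largest genotype difference of the members. It read 184.2 and 118.8 in starved and 84.8 and 67.9 in stimulated WT cells, and 23112 and 25106 in starved and 19144 and 20816 in stimulated KO cells. The log2 difference was 7.20 ± 0.199 in starved cells (adjusted p = 8.74e-09) and 7.76 ± 0.199 after serum (adjusted p = 9.34e-09). The WT signals were all below the 40th percentile, so the size depends on the added constant: with the largest constant tried it was 5.91 and 5.93. In WT cells Apod was lower after serum, with a log2 difference of -0.84 ± 0.199 (adjusted p = 0.0448), a call lost without any 1 array other than starved WT array 2 (limma adjusted p from 0.0663 to 0.208). With the largest constant tried that value was -0.29 (adjusted p = 0.262). In KO cells the serum change was -0.27 ± 0.199 (adjusted p = 0.357), and the difference of the responses did not pass (0.57 ± 0.281, adjusted p = 0.31).

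Lpl, lipoprotein lipase, frees fatty acids from circulating lipoproteins and is an early product of differentiating preadipocytes. Its signal was 126.5 and 142.1 in starved and 247.1 and 230.3 in stimulated WT cells, and 2136 and 2116 in starved and 1539 and 880.8 in stimulated KO cells. The 4 groups did not overlap. KO cells held more by 3.83 ± 0.279 on the log2 scale when starved (adjusted p = 3.14e-06) and by 2.21 ± 0.279 after serum (adjusted p = 0.000129), or 2.61 and 1.53 with the largest added constant tried. The serum differences ran opposite ways, at 0.76 ± 0.279 in WT cells (adjusted p = 0.18) and -0.86 ± 0.279 in KO cells (adjusted p = 0.05, just above the threshold), and their difference of -1.62 ± 0.395 did not pass (adjusted p = 0.0624). The KO value passed in 7 of 20 alternatives, among them leaving out stimulated KO array 1 (adjusted p = 0.0305). A second Lpl probe set was below the test level on all arrays, at 19.0 to 96.4 on the WT and 170.8 to 293.4 on the KO arrays, with no overlap.

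Dgat2, the enzyme of the last step of triglyceride synthesis, did not pass in any comparison on either probe set. The first read 1268 and 1144 in starved and 1470 and 1179 in stimulated WT cells, and 865.0 and 1412 in starved and 1037 and 1065 in stimulated KO cells. The KO minus WT difference was -0.12 in starved cells (95% interval -0.63 to 0.39) and -0.32 after serum (95% interval -0.83 to 0.19), so changes of up to these bounds are within the error. The second Dgat2 probe set gave -0.04 and 0.10, with intervals of -0.43 to 0.34 and -0.28 to 0.49.

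Adipor2, a receptor for the fat cell hormone adiponectin, read 5228 and 4816 in starved and 6714 and 5791 in stimulated WT cells, and 4491 and 4213 in starved and 4549 and 4408 in stimulated KO cells. The stimulated WT arrays were the highest. It was lower in KO cells after serum, with a log2 difference of -0.48 ± 0.122 (adjusted p = 0.00851), while the starved difference of -0.21 ± 0.122 did not pass (adjusted p = 0.192). The stimulated call was lost without stimulated WT array 1 (adjusted p = 0.0728) or stimulated KO array 2 (adjusted p = 0.0541) and after median centring (adjusted p = 0.0672). Its only probe set carries the suffix s, which marks probes shared between transcripts, so signal from a related transcript cannot be told apart.

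**Figure D4:**
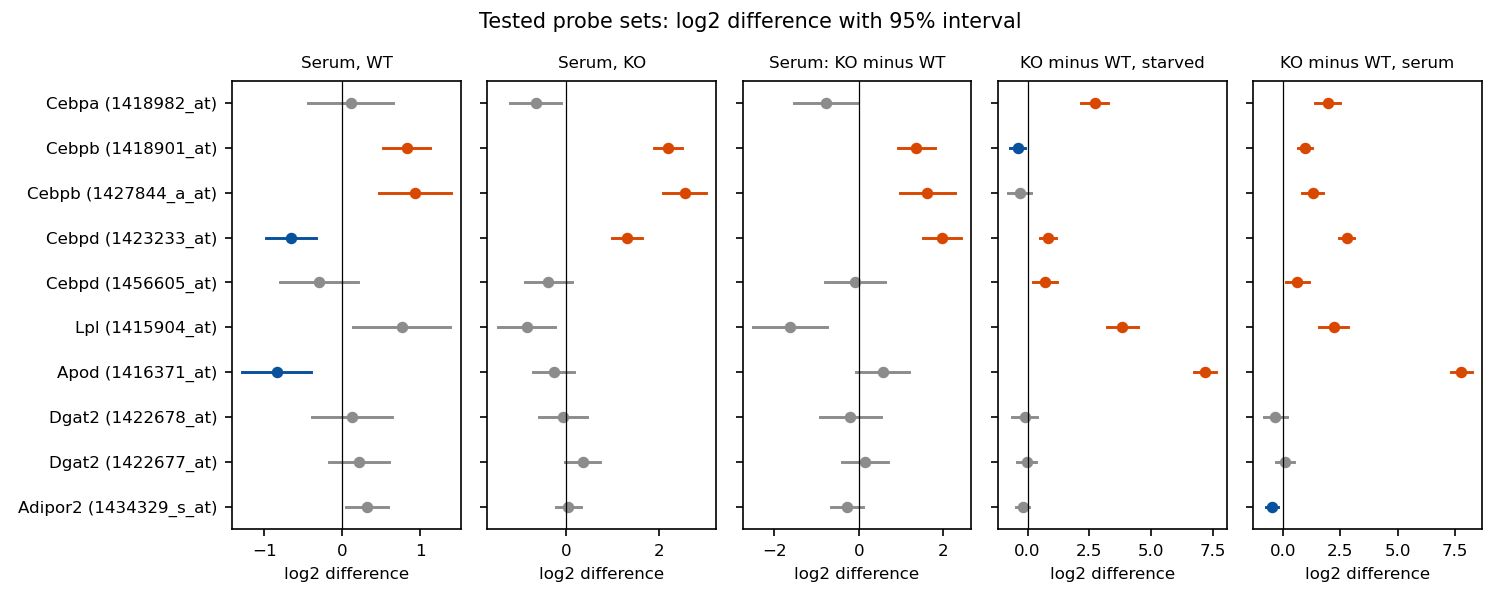
Log2 difference (x axis, a separate scale in each panel) of the 10 tested probe sets in the 5 comparisons, with points for the estimate and lines for the 95% interval; orange is higher, blue lower and grey not past an adjusted p of 0.05. The serum responses of Cebpb and of the brighter Cebpd probe set differ between genotypes, and Apod, Lpl and Cebpa are the furthest from 0 between genotypes.

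Counted by gene, with the brightest probe set standing for each, 1 of the 7 tested genes rose and 2 fell with serum in WT cells, where 4.14% of 14947 tested probe sets were called, 2.44% upward and 1.7% downward. In KO cells 2 rose and 5 did not pass, against 23.1% called, 9.33% upward and 13.8% downward. For the difference of the responses, 2 were more positive in KO cells and 5 did not pass, against 2.69% called, 1.61% more positive and 1.08% more negative. In starved cells 4 were higher and 1 lower in the KO, against 47.6% called, 22.8% higher and 24.8% lower. After serum 5 were higher and 1 lower, against 50.2% called, 22.7% higher and 27.5% lower. The genotype shares are thus to be read against a background in which about as many probe sets differed as did not, and Lpl and Apod were tested through their KO signal alone. The WT serum count of 3 became 0 when stimulated WT array 1 was dropped, 1 when starved WT array 1 or stimulated WT array 2 was, and 2 for each other array, by limma. Across every tested probe set, rises made up 40.4% of the KO serum calls as deposited and 66.3% after median centring. These shares were 60% and 76.6% for the difference of the responses, and 45.3% and 59.3% between genotypes after serum. No called member changed direction under median centring or quantile normalization. Uncalled Dgat2 did with serum in KO cells, from -0.07 to 0.085 after centring.

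Genes grouped as adipogenic inputs and cofactors formed a list of 32, of which 28 were tested. Their action on the members was not examined here. In starved cells 15 were higher and 3 lower in the KO, with a median of 0.71 against -0.01 over all tested probe sets, and after serum 15 were higher and 4 lower (median 0.50 against -0.07). The shares of all tested probe sets called were 47.6% and 50.2%, as for the members. Of the 28, Zfp423, Ebf2 and Ppargc1b passed the filter through KO arrays alone. The filter thus leaned their tests towards a genotype difference, which adds to the higher counts and medians. By size Zfp423, a zinc finger factor of preadipocytes, and Ppargc1b, a PPAR coactivator, were furthest apart in starved cells, at 4.69 ± 0.55 and 3.79 ± 0.335, or 1.87 and 2.28 with the largest constant tried. By p-value Irs1, the main docking protein of the insulin and IGF receptors, came first. It read 6257 and 6580 in starved WT against 37157 and 44210 in starved KO cells, a log2 difference of 2.66 ± 0.116 (adjusted p = 1.31e-07), and 2.83 ± 0.116 after serum (adjusted p = 1.08e-07). Bmp4, a ligand that commits stem cells to the fat lineage, was next by p-value, at 5268 and 4058 against 21990 and 19269 in starved cells (log2 2.15 ± 0.148, adjusted p = 2.19e-06). The 4 lower genes after serum were 2 without stimulated WT array 1 or stimulated KO array 2 and 2 after quantile normalization or median centring.

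With serum, 3 of the 28 inputs rose and 2 fell in WT cells, with a median of 0.17 against -0.05 over all tested probe sets. In KO cells 6 rose and 5 fell (median 0.00 against -0.13). Of all tested probe sets, 2.44% rose and 1.7% fell in WT cells, and 9.33% rose and 13.8% fell in KO cells. Egr2 went from 261.6 and 199.4 to 10390 and 8228 in WT cells (log2 5.24 ± 0.333, adjusted p = 8.23e-06), and from 165.7 and 420.3 to 12022 and 13109 in KO cells (log2 5.48 ± 0.333, adjusted p = 3.27e-06). Its starved signals were low, and with the largest constant tried the rises were 4.29 in WT and 4.58 in KO cells. Its response differed by 0.24 ± 0.47 between genotypes, which did not pass (adjusted p = 0.832), and was not compared with that of Cebpb. Srf, the serum response factor, rose by 1.58 ± 0.128 in WT cells (adjusted p = 5.32e-05), and Klf6, a zinc finger factor, by 2.02 ± 0.194 in KO cells (adjusted p = 8.16e-05). The serum change was more positive in KO than in WT cells for 3 and more negative for 2 (median -0.07 against -0.06). Over all tested probe sets these shares were 1.61% and 1.08%. For Rxrb, a partner receptor of PPARgamma, the difference was -1.43 ± 0.211 (adjusted p = 0.00728), with a serum change of -0.97 in KO cells (adjusted p = 0.00163) and of 0.46 in WT cells, which did not pass (adjusted p = 0.13). For Irs2 it was -1.42 ± 0.234 (adjusted p = 0.0138), with a serum change of 1.51 in WT cells (adjusted p = 0.000508) and of 0.09 in KO cells, which did not pass (adjusted p = 0.722).

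Klf4, chosen for mention after its values were seen because it acts on Cebpb, was 1 of the 3 with a more positive response. It read 1191 and 1352 before and 2409 and 1599 after serum in WT cells, and 1661 and 2282 before and 7881 and 9404 after in KO cells, and its response was larger in the KO by 1.51 ± 0.306 (adjusted p = 0.0323). That call was lost without any 1 array other than starved KO array 2 or stimulated WT array 1 (adjusted p from 0.0605 to 0.118). All 3 of these calls were lost (0 left) without either starved WT array, stimulated WT array 2 or either stimulated KO array. The call for Irs2 was lost without stimulated WT array 1 (adjusted p = 0.0564), stimulated KO array 1 (adjusted p = 0.0665) or stimulated KO array 2 (adjusted p = 0.0521), each of which left 1 more negative response. The 5 falls in KO cells were 3 without starved KO array 2 or either stimulated KO array.

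Genes grouped as inhibitors of adipogenesis formed a list of 26, with 21 tested. The action of each on fat cell formation was not examined here. With serum 7 rose and 1 fell in WT cells and 6 rose and 6 fell in KO cells. The medians were 0.18 and -0.33, against -0.05 and -0.13 over all tested probe sets. The shares over all tested probe sets were 2.44% up and 1.7% down in WT cells, and 9.33% up and 13.8% down in KO cells. The serum change was more negative in KO than in WT cells for 6 and more positive for 1 (median -0.37 against -0.06). Over all tested probe sets these shares were 1.08% and 1.61%. Among the 6, chosen for mention after their values were seen, Sox9 rose in WT cells (1.66) and fell in KO cells (-1.11), Foxc2 likewise rose in WT and fell in KO cells (-1.37), and Gata2 fell in KO cells (-0.84) with 0.43 in WT cells, which did not pass. Bhlhe40, a repressor of the circadian system and of Pparg, rose by 2.96 ± 0.129 in WT cells (adjusted p = 8.02e-07) and by 1.19 ± 0.129 in KO cells (adjusted p = 0.000188), so that its rise was smaller, with a log2 difference of -1.77 ± 0.183 (adjusted p = 0.0014). Hes1, a Notch target, rose by 2.87 ± 0.162 and 2.40 ± 0.162 (adjusted p = 3.7e-06 and 6.62e-06). Id2, an inhibitor of basic helix-loop-helix factors, read 133.5 and 76.0 before and 1646 and 1545 after serum in WT cells but 2239 and 2440 before and 1444 and 1507 after in KO cells, a difference in response of -4.44 ± 0.329 (adjusted p = 0.000268), or -2.95 with the largest added constant, since its starved WT signals lay below the test level.

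Between genotypes, 8 of these 21 were higher and 4 lower in starved KO cells (median 0.25 against -0.01), and 8 higher and 9 lower after serum (median -0.11 against -0.07), where 47.6% and 50.2% of all tested probe sets were called. Of the 21, Gata3 passed the filter through KO arrays alone and Dlk1, Trib3 and Tgfb1 through WT arrays alone. The filter thus leaned these tests towards a genotype difference. The starved difference of Dlk1 did not pass (limma adjusted p = 0.109). After serum all of these genes were called, with Dlk1 at a log2 difference of -1.11 (limma adjusted p = 0.0386). Their part in these counts carries that limit. Id2 was higher by 4.33 ± 0.233 in starved KO cells (adjusted p = 4.42e-07), or 2.85 with the largest constant. Trib3, a pseudokinase that binds AKT, was lower, with a log2 difference of -3.86 ± 0.208 when starved (adjusted p = 4.52e-07) and -3.06 ± 0.208 after serum (adjusted p = 2.13e-06), and Tgfb1 was lower, with a log2 difference of -4.50 ± 0.21 after serum (adjusted p = 2.2e-07). Trib3 read 176.9 to 264.7 on the KO arrays, and Tgfb1 280.3 and 289.1 in stimulated KO cells. These signals lay below the test level, so the sizes depend on the added constant. Of the serum counts, the 6 falls in KO cells were 3 without stimulated KO array 1, and the 1 fall in WT cells was 2 without either starved KO array. The 1 more positive response was lost (0 left) without starved WT array 1, either stimulated WT array or either stimulated KO array.

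**Figure D5:**
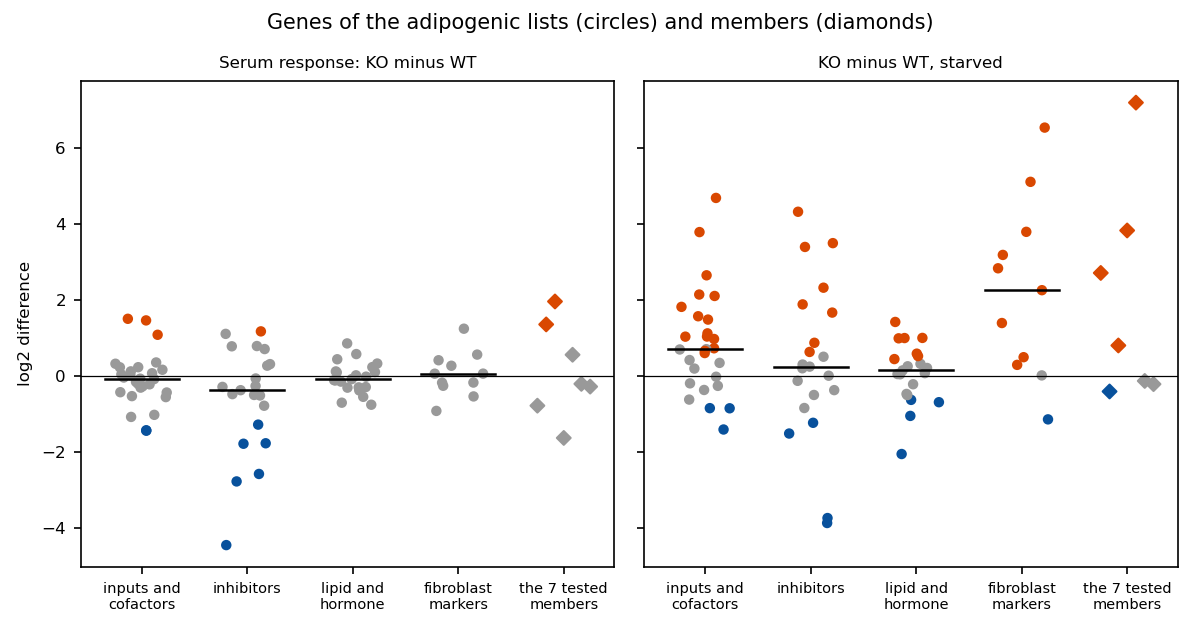
Log2 difference (y axis) of each tested gene in the 3 adipogenic lists and the fibroblast marker list (circles, with bars for the median) and of the 7 tested members (diamonds), for the difference of serum responses (left) and starved KO minus WT (right); orange is higher, blue lower and grey not past an adjusted p of 0.05. Most fibroblast markers lie above 0 on the right, with a median of 2.26, and near 0 on the left.

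Adipocyte lipid and hormone genes formed a list of 36, with 21 tested. Of the mature adipocyte markers named above, only Retn was among the 21. None was called with serum in WT cells or for the difference of the responses by limma (4 and 4 at an unadjusted p under 0.05), and 4 fell in KO cells. The medians were -0.12, -0.07 and -0.14, against -0.05, -0.06 and -0.13 over all tested probe sets. Of all tested probe sets, 4.14% were called with serum in WT cells and 2.69% for the difference, and 13.8% fell in KO cells. Angptl4, an inhibitor of lipoprotein lipase, passed the filter through its starved KO arrays alone (834.4 and 816.4). The filter thus leaned its serum test in KO cells, and its part in the count of falls, towards a fall. Angptl4 fell by 1.05 ± 0.234 (adjusted p = 0.0106) and Lipe, hormone-sensitive lipase, by 0.97 ± 0.22 (adjusted p = 0.0113). Without stimulated KO array 1 these had adjusted p = 0.0587 and 0.09 and 0 fell, without stimulated KO array 2, 2 fell, and without starved KO array 2, 1 fell. Without starved KO array 1, 2 genes of the list rose with serum in KO cells and 1 response was more positive, and without either starved KO array 1 fell in WT cells.

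In starved KO cells 7 of these 21 were higher and 4 lower (median 0.16 against -0.01), and after serum 5 were higher and 4 lower (median 0.21 against -0.07), beside 47.6% and 50.2% of all tested probe sets called. Angptl4 passed the filter through starved KO arrays alone, which leaned its starved test towards a genotype difference as well. Plin2, a coat protein of lipid droplets, read 6044 and 7161 in starved WT and 12246 and 14359 in starved KO cells (log2 1.01 ± 0.127, adjusted p = 0.000129). Vldlr, a lipoprotein receptor, was lower, at 4732 and 5376 against 1337 and 1096 (log2 -2.04 ± 0.165, adjusted p = 6.47e-06). The 7 higher genes were 4 without starved KO array 2. The 5 higher after serum were 3 without stimulated WT array 2 or stimulated KO array 1 and 1 without stimulated KO array 2, and 8 after median centring.

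Most tested markers from a list of 16 for preadipocytes and fibroblasts moved with genotype, beside Cebpa, Lpl and Apod. Cd34, Ly6a, Thy1, Dpp4 and Pi16 of that list were not tested, so the counts below do not cover them. Of 11 tested, 9 were higher and 1 lower in starved KO cells, with a median of 2.26, and 8 were higher and 1 lower after serum, with a median of 2.28, beside 47.6% and 50.2% of all tested probe sets called. Pdgfra and Lum passed the filter through KO arrays alone, which leaned their tests towards a genotype difference. Their tests and their part in these counts carry that limit. The summed signal of the 15 markers on the array was 169665 to 190124 on the WT arrays and 316133 to 414218 on the KO arrays. Pdgfra, the PDGF receptor of fibroblast and fat progenitors, read 124.2 and 129.2 in starved WT against 11152 and 15782 in starved KO cells (log2 6.54 ± 0.217, adjusted p = 2.66e-08, or 5.14 with the largest added constant). Lum and Col3a1, matrix genes, were higher by 3.19 ± 0.279 (adjusted p = 1.1e-05) and 2.26 ± 0.272 (adjusted p = 9.57e-05), and Dcn was the 1 lower, with a log2 difference of -1.13 ± 0.264 (adjusted p = 0.00548, or 0.0522 without starved WT array 1). These 4 were chosen after their values were seen, and the part of this shift in the members' values was not tested. The lower count after serum was 0 without stimulated WT array 1 or either stimulated KO array and 2 without either starved KO array, and the 8 higher were 5 without suffixed probe sets.

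Markers of other cells that use Fabp4, Cd36 or Lpl were mostly dim. Of 12 macrophage markers, 2 or 3 were above the 40th percentile on both arrays of a group, among them Csf1r and either Cd14 or Lyz2, and their summed signal was 2975 to 4474 on the WT and 3351 to 4227 on the KO arrays. Of 10 endothelial markers 1 or 2 were, with sums of 1817 to 2530 on the WT and 2279 to 2562 on the KO arrays. Epithelial and skeletal muscle markers, 10 of each, gave 0 to 2 and 0 to 1 above that level, with sums of 1591 to 2979 and 1096 to 2109 over the 8 arrays. Some moved with genotype, and these are named after their values were seen. Krt19, a keratin, read 607.1 to 929.8 on the WT and 15.0 to 206.1 on the KO arrays, a log2 difference of -2.84 ± 0.626 when starved (adjusted p = 0.00399) and -4.27 ± 0.626 after serum (adjusted p = 0.000332), and it passed the filter through WT arrays alone. Without starved KO array 1 its starved difference was -1.79. Cd14 was lower in KO cells after serum at -1.62 ± 0.216 (adjusted p = 0.000181). Lyz2 was higher when starved by 1.08 ± 0.352 (adjusted p = 0.0284), a call lost without any of the 4 starved arrays (limma adjusted p from 0.0518 to 0.125). Flt1, tested through KO arrays alone, was higher after serum by 0.91 ± 0.27 (adjusted p = 0.0184), a call lost without either stimulated WT array (adjusted p = 0.073 and 0.0569). No marker of these lists read exactly 0, and their part in the members' values was not tested.

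Probe sets whose pattern was most like that of the members were ranked by Pearson's r of log2 signal over the 8 arrays, which share groups and scaling, so r is a description. Nearest to Cebpb were Map3k8 (r = 0.994), Dnajb4 (r = 0.990) and Asxl1 (r = 0.989), and 77 of 13789 probe sets of other genes reached 0.95. Map3k8, a kinase upstream of ERK, had group means of 423.5, 1061, 282.6 and 2792 in starved and stimulated WT and starved and stimulated KO cells, the same order as Cebpb. Nearest to Cebpd on its brighter probe set were Lasp1 (r = 0.991), Tle3 (r = 0.989) and Txndc9 (r = 0.985), with 51 at or above 0.95. The dimmer Cebpd probe set, which did not show the KO rise, was not ranked. Tle3, a Groucho-family corepressor, had means of 5461, 4522, 6978 and 9740 in the same groups. It was lower after serum in WT and higher in KO cells, like the brighter Cebpd probe set by which it was picked. Pparg had no tested probe set and was not ranked.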

How the data were processed

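RNA from 8 samples was hybridised to 1 array each. The authors deposited 1 intensity per probe set and array, with MAS5 as the algorithm, per the submitters' processing notes; the version, scaling target and detection calls are not given in the sources used here. MAS5 subtracts mismatch brightness, so low values are noisy. Of 22690 probe sets, 64 controls were left out and 14947 (66.1%) passed the filter. Genes were named from the arrays' probe-to-gene table, in which 20380 probe sets name a single gene. Log2 of signal plus 16 was fitted with limma 3.58.1 in R 4.3.3 over 4 group means and all 8 arrays (4 residual and 6.07 prior degrees of freedom), allowing for a mean-variance trend; tests were two-sided, p-values were adjusted by Benjamini-Hochberg across those that passed, and 0.05 was the threshold. The smallest p that exact permutation of 2 against 2 arrays allows is 0.333. The procedure was tested on simulated data. Named genes were every member, Med23, up to 2 called genes with the smallest p per adipogenic list and comparison, the 3 nearest patterns for Cebpb and Cebpd (Pparg, also in the rule, was not tested), and genes said to be chosen after their values were seen. Members and lists were chosen with earlier results of these data known. Alternatives were other pseudocounts, scalings, filters, fits and probe set choices, and leaving out each array. The number of arrays limits the precision. Figures were drawn with matplotlib 3.10.9.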

Additional observations from a re-analysis of the deposited data

Results flagged for a closer look

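The serum response of Cebpb differed between genotypes by the test of the difference itself. On the log2 scale it was larger in knockout cells, by 1.36 on the first probe set and 1.62 on the second. The response of Cebpd was more positive in knockout cells by 1.97 on its brighter probe set, where both wild-type stimulated arrays lay below and both knockout stimulated arrays above their starved arrays. On its dimmer probe set the difference in response was -0.08 and did not pass. Groups of 2 arrays are too small for a check of single outlying samples.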

How the results depend on the processing

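For the 35 values of the 7 tested members in the 5 comparisons, 690 values were recomputed, and no call was reversed in direction. Of the 690, 648 kept their side of the threshold, 31 lost it and 11 gained it. Uncalled values could change sign. With 1 array left out, that of Cebpa with serum in wild-type cells ran from -0.25 to 0.46. The number of members called with serum in wild-type cells, 3 as reported, was 1 with no filter, 1 with no mean-variance trend, 1 with only the arrays of the compared groups, and 0 to 2 with 1 array left out. In knockout cells, 2 as reported, it was 4 with the largest pseudocount and 4 with only the arrays of the compared groups, through falls of Cebpa and Lpl, and 2 to 3 with 1 array left out. The counts for the difference of the responses (2 throughout), starved cells (4 to 5) and stimulated cells (5 to 6) moved by less than 1.5 times. Over all tested probe sets, the 619 wild-type serum calls were 316 to 699 with 1 array left out, the 3455 in knockout cells 1573 to 3226, and the 402 differences of responses 127 to 501; the 402 were 250 with no filter, 214 with no trend and 250 with 1 probe set per gene. With 1 probe set per gene the other counts of 3455, 7111 and 7506 were 2080, 4251 and 4424, and without suffixed probe sets the last pair were 4534 and 4847; fewer probe sets are tested in both. Median centring moved the median over tested probe sets from -0.13 to 0.03 with serum in knockout cells, from -0.06 to 0.05 for the difference of the responses and from -0.07 to 0.09 after serum between genotypes. Set numbers share only a number: correlations of same-numbered deviations ran from -0.034 to 0.214 over the pairs of groups. With the set number as a replicate block the members called were 3, 2, 2, 5 and 6, as without it, and calls over all probe sets went from 619, 3455, 402, 7111 and 7506 to 634, 3494, 399, 7185 and 7581. Where another setting changed a member's call and no value shows why, the cause was not tested. In the adipogenic lists, without suffixed probe sets the 6 rises of inputs in knockout cells were 3. In the same setting the 7 and 4 lipid and hormone genes higher and lower in starved knockout cells were 4 and 1. With no filter or no trend the 3 more positive responses among inputs were 0. Signals of Pparg, Fabp4 and Cd36 near the floor, and wild-type Apod and Lpl, limit what can be compared.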
